A study of Mus musculus with 6 samples.

Results

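The genes described here are 48 innate immune sensors, inflammasome genes and genes of NF-kB signalling, named by symbol and read from a count table of 33017 genes in mouse small intestine. They were taken by symbol, with no threshold on a measured value. All 48 were in the table, and 47 had enough counts to be tested. Messenger RNA had been sequenced from 2 groups named control and model, with 3 libraries each, numbered 1 to 3 within each group. The series' title names simulated microgravity and radiation, and its design text a joint effect of both factors. None of the libraries carries a label of a compound. Strain, age, dose and time are not in the labels. Nor is it stated that each library is a separate animal, and a p-value here therefore measures the spread among these libraries, which may be technical.

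Cells of the gut wall read microbial products through several families of receptors. Toll-like receptors bind them at the cell surface or in endosomes and signal through the adaptors Myd88 and Ticam1 and the IRAK kinases. NOD receptors bind fragments of the bacterial cell wall in the cytosol, and inflammasome sensors assemble caspase-activating complexes. Most of these routes end at the IkB kinase complex, which marks the inhibitors of NF-kB for destruction and lets the NF-kB transcription factors enter the nucleus. In the small intestine epithelial cells carry some of these sensors and leukocytes of the lamina propria and lymphoid follicles carry others. The comparison asks which of these transcripts differed between control and model tissue.

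No member was called between model and control. The test was edgeR's quasi-likelihood test over all 15904 tested genes, with a call at a Benjamini-Hochberg adjusted p under 0.05. It called 0 of 47 members and 0% of all genes, and the smallest adjusted p among the members was 0.851. DESeq2, run as an alternative, called 0 members and 0.176% of the genes for which it gave an adjusted p. At an unadjusted p under 0.05 there were 3 members, against 4.81% of all genes. Of these, Irak2 and Nfkbib had higher values in the model group (1.82% of all genes did so) and Tlr5 lower (2.99% of all genes). The groups did not overlap for 6 members (Irak2, Irak4, Nfkbib and Chuk higher in model, Ripk2 and Nlrp1b lower), or 6 of 47 against 11.1% of all genes tested, 4.73% higher and 6.33% lower. Negative log2 fold changes, model against control, were found for 36 of 47 members against 51.8% of all genes, with a median of -0.19 against -0.02 over all genes.

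Control 3 stood apart from the other libraries and moved with many of these values. Its summed level of ileum markers was 2214 CPM (reads of a gene relative to the TMM-scaled library total) against 99.7 to 238 CPM in the other 5, and its duodenum and jejunum markers summed to 260.1 CPM against 3836 to 7410 CPM. B cell and follicle markers were high in control 3 (summed 376 CPM) and model 3 (235 CPM) and summed to 16.5 to 51.4 CPM elsewhere. Model 3 also held 4907 CPM of exocrine pancreas markers, with at most 9.80 CPM in any other library. Epithelial markers summed to 17703 to 25083 CPM, with overlapping groups, so epithelial transcripts were plentiful in every library. The sum hides differences between single markers. In control 3, Lct (0.997 CPM) and Alpi (276 CPM) were at their lowest, and Muc2 (6727 CPM) and Lyz1 (3744 CPM) at their highest. Macrophage markers summed to 428.5 to 742 CPM. The single gene Mertk, higher in every model library (4.73% of all genes tested were), made up 116 to 395 CPM of the sum. Without Mertk the macrophage markers summed to 195.9 to 410.3 CPM, with overlapping groups. The median log2 fold change of smooth muscle markers was -0.72. Myh11 (unadjusted p 0.0156 by edgeR) was lower in every model library, as were 6.33% of all genes tested. For T cell markers the median was 0.39, with 2 of 8 higher in every model library (4.73% of all genes tested were) and Cd2 negative (-0.30). Model 1, the lowest library for many members, was also lowest for the fibroblast sum (331 CPM, against 379 to 1322 CPM elsewhere) and the dendritic cell sum (67.4 CPM, against 82.3 to 112 CPM). The B cell sum was lowest there too (16.5 CPM). It was the highest library for the T cell (163 CPM), epithelial (25083 CPM) and duodenum and jejunum (7410 CPM) sums. The macrophage, neutrophil and monocyte, and blood endothelium sums were lowest in control 2 (428.5, 7.62 and 73.6 CPM). The part of these cells in the members' values was not tested. The markers at 0 in all 6 libraries were Itgam (macrophages), Ms4a1 (B cells), Fabp2 (epithelium) and Cela2a (pancreas). Of the 47 members, 26 were highest in control 3 (27.5% of all genes tested were) and 23 were lowest in model 1 (30.8% of all genes). Without control 3, 20 of 47 log2 fold changes were negative, with a median of 0.03 against 0.02 over all genes, and 0 members had an unadjusted p under 0.05 against 2.34% of all genes. In bulk tissue, fewer cells of a type and less RNA per cell cannot be told apart.

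**Figure D1:**
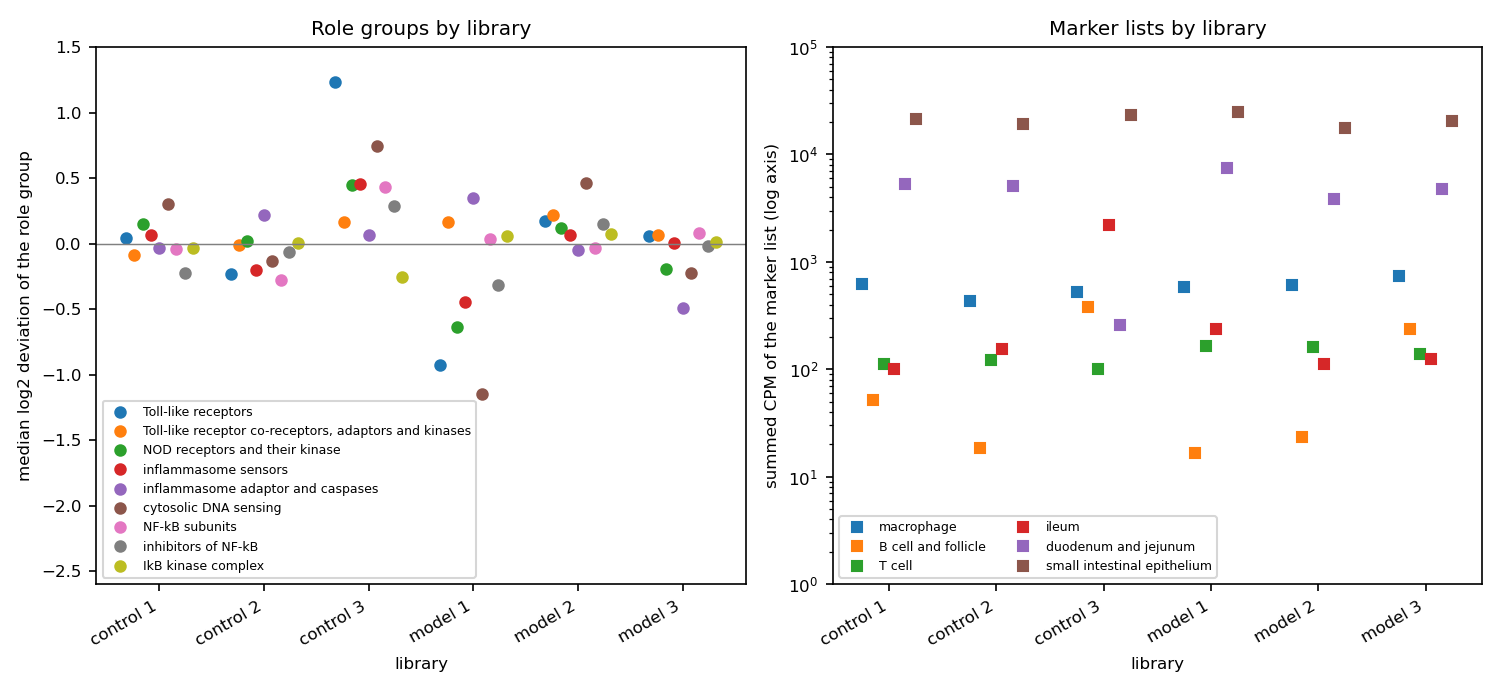
The left panel plots the median log2 deviation of each role group (each gene's log2 CPM minus its mean over 6 libraries) for each library. The right panel plots the summed CPM of 6 marker lists on a log axis. The Toll-like receptors reach 1.23 in control 3 and -0.93 in model 1, and control 3 is also the library with the highest ileum sum (2214 CPM) and the lowest duodenum and jejunum sum (260.1 CPM).

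Among the 9 Toll-like receptor genes all had negative log2 fold changes, between -1.83 and -0.15 with a median of -0.60, and none was called. Tlr5, the receptor for bacterial flagellin, measured 1.08, 1.31 and 4.65 CPM in control 1, 2 and 3 and 0.242, 1.13 and 0.570 CPM in model 1, 2 and 3. The groups overlapped, control 3 stood above the others, and the lowest library rested on 7 reads. The log2 fold change of Tlr5 was -1.83 (SE 0.77, unadjusted p 0.0475, adjusted p = 0.851 by edgeR), and without control 3 it was -0.85. Tlr4, the receptor for endotoxin, measured 2.84, 3.82 and 12.6 CPM in control libraries and 2.42, 4.79 and 3.70 CPM in the model ones. The other 5 libraries lay within a narrow range below control 3, and the log2 fold change of -0.82 (SE 0.60) became 0.15 without that library. Tlr1, a partner of Tlr2 in binding bacterial lipopeptides, measured 12.1, 13.9 and 25.9 CPM in control libraries and 4.15, 14.7 and 12.8 CPM in the model ones, so that control 3 was the highest and model 1 the lowest.

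Tlr3, the endosomal receptor for double-stranded RNA, was the receptor gene of this family with the most reads, at 37.5, 46.5 and 38.2 CPM in control libraries and 31.4, 42.6 and 25.8 CPM in the model ones. Its libraries spanned 1.80-fold, the least in the family, and its log2 fold change of -0.29 (SE 0.24) was -0.30 without control 3 and model 1. Tlr9, the endosomal receptor for unmethylated DNA, measured 5.38, 1.42 and 9.57 CPM in control libraries and 0.277, 4.81 and 6.95 CPM in the model ones. High values of Tlr9 were found in both groups, in the libraries control 3 and model 3 that also had the highest B cell marker sums; the part of these cells in the Tlr9 values was not tested. The highest library exceeded the lowest 34.6-fold for Tlr9 and 30.5-fold for Tlr8, a receptor for single-stranded RNA with as few as 2 reads in model 1. Tlr2, Tlr6 and Tlr7 had log2 fold changes of -0.60, -0.61 and -0.15, none beyond 1.5 times its SE. Without control 3, 4 of the 9 receptor genes were negative (median 0.08), and without control 3 and model 1 the number was 3 (median 0.33).

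**Figure D2:**
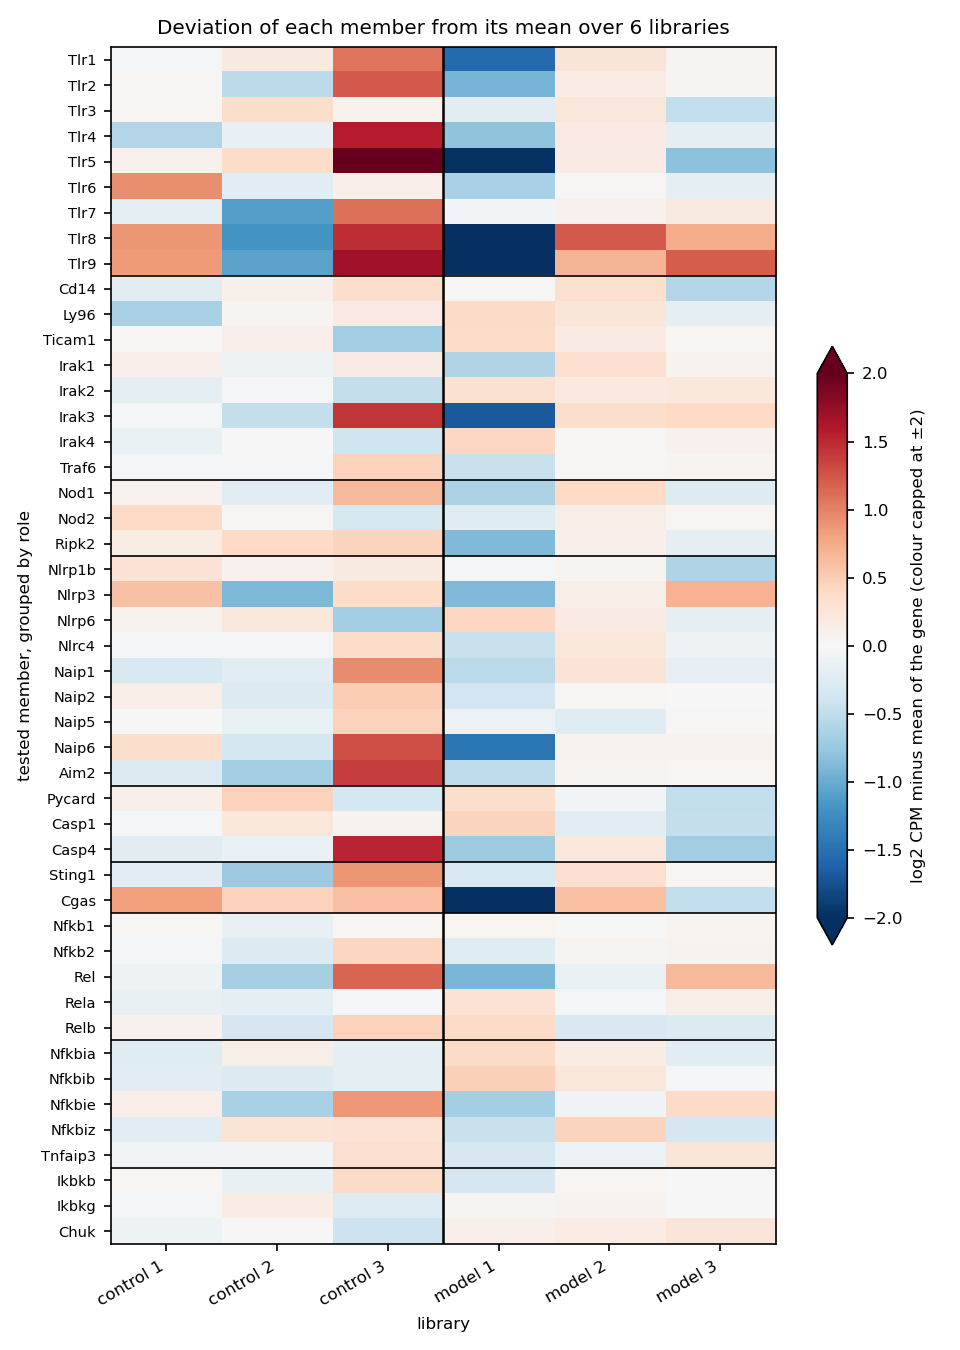
Rows are the 47 tested members grouped by role, columns are the 6 libraries, and colour gives log2 CPM minus the mean of the gene, capped at 2 in either direction. Control 3 holds the highest value of 26 members and model 1 the lowest of 23.

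Downstream of the receptors, 7 of the 8 tested co-receptor, adaptor and kinase genes spanned 1.72-fold to 2.09-fold between their lowest and highest library, and Irak3 spanned 8.79-fold. Irak2, a kinase-like protein that prolongs Toll-like receptor signalling, measured 86.3, 95.0 and 69.7 CPM in control libraries and 120.2, 111 and 112 CPM in the model ones. All 3 model libraries lay above all 3 control libraries, as they also did after each change of scaling. The means were 83.7 ± 12.8 and 115 ± 4.83 CPM (SD, n = 3), with a log2 fold change of 0.45 (SE 0.19, unadjusted p 0.0436, adjusted p = 0.851 by edgeR). Irak4, the kinase that starts the cascade, measured 82.1, 90.3 and 68.2 CPM in control libraries and 119, 90.7 and 95.4 CPM in the model ones. Its groups did not overlap, but control 2 and model 2 differed by less than 1 CPM and overlapped with upper quartile scaling, and the log2 fold change was 0.34 (SE 0.20, unadjusted p 0.128).

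The remaining genes of this group overlapped between groups. Ticam1, the adaptor of Tlr3 and of endosomal Tlr4, measured 80.4, 83.9 and 48.3 CPM in control libraries and 101, 88.2 and 80.6 CPM in the model ones, and control 3 was the lowest. The log2 fold change was -0.07 (SE 0.26) for Irak1 and -0.25 (SE 0.23) for the ubiquitin ligase gene Traf6. Irak3, which lacks kinase activity and restrains the pathway, ranged from 1.07 CPM in model 1 to 9.43 CPM in control 3. For the endotoxin co-receptor genes it was -0.13 (SE 0.30) in Cd14 and 0.27 (SE 0.31) in Ly96. Over the 8 tested genes of this group 4 were positive and 4 negative, with a median of 0.10. Without control 3 it was 7 positive and 1 negative. Myd88, the adaptor most Toll-like receptors use, had 0 counts in every library; whether the transcript was missing or not counted cannot be told apart here.

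In the NOD branch all 3 genes had negative values. Ripk2, the kinase that both NOD receptors use, measured 6.49, 7.70 and 8.003 CPM in control libraries and 3.15, 6.26 and 5.10 CPM in the model ones. Every model library was below every control library, although control 1 and model 2 were less than 1 CPM apart. The means were 7.40 ± 0.801 and 4.84 ± 1.57 CPM (SD, n = 3), and the log2 fold change of -0.61 (SE 0.32, unadjusted p 0.0955, adjusted p = 0.851 by edgeR) was -0.53 without control 3 and -0.38 without model 1. Nod1, which binds a peptidoglycan fragment found mainly in Gram-negative bacteria, measured 14.7, 12.2 and 22.0 CPM in control libraries and 9.07, 18.6 and 11.7 CPM in the model ones, with overlapping groups. Nod2, the sensor of muramyl dipeptide, had 6.404, 4.92 and 3.87 CPM in control libraries and 4.08, 5.26 and 4.96 CPM in the model ones. Here control 3 was the lowest library, and the log2 fold change was -0.09 (SE 0.30).

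**Figure D3:**
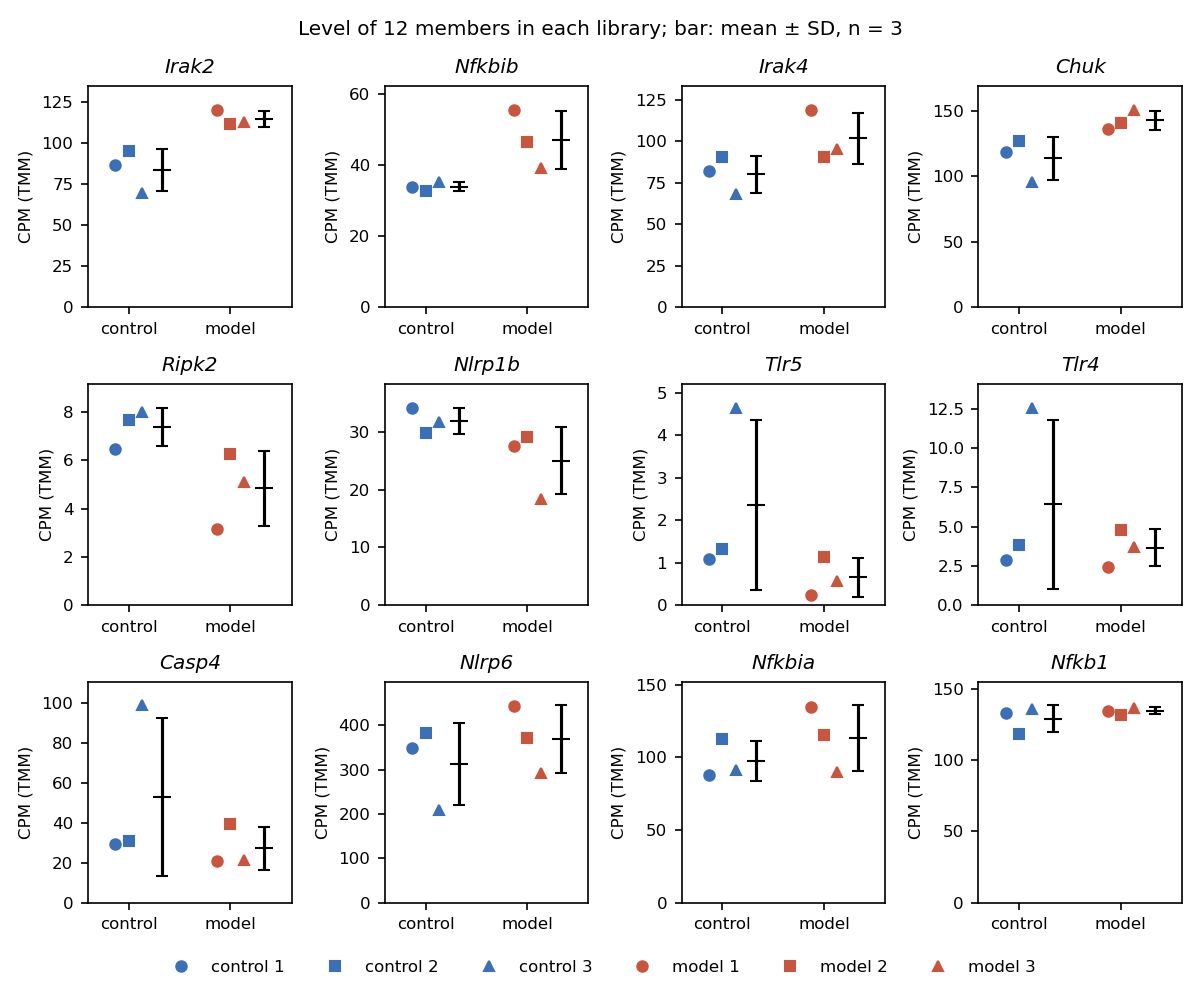
Each panel shows the CPM of 1 gene in the 3 control libraries (blue) and 3 model libraries (red), with symbols for the replicate number and a bar for the mean and SD. Irak2, Nfkbib, Irak4 and Chuk lie higher in every model library, Ripk2 and Nlrp1b lower, and in Tlr5, Tlr4 and Casp4 control 3 sets the control mean.

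Among the 9 inflammasome sensor genes 8 had negative log2 fold changes, with a median of -0.26 that was -0.04 without control 3, and none was called. Nlrp6, a sensor known from intestinal epithelium, had the most reads of all members, at 349, 384 and 208 CPM in control libraries and 444, 372 and 292 CPM in the model ones. Control 3 was the lowest library, the groups overlapped, and the log2 fold change of 0.24 (SE 0.30) was 0.03 without control 3. Nlrp1b, the sensor of bacterial proteases, measured 34.3, 29.7 and 31.8 CPM in control libraries and 27.6, 29.2 and 18.4 CPM in the model ones. Model values were all below control values, with a gap of under 1 CPM between control 2 and model 2, and the log2 fold change was -0.35 (SE 0.22, unadjusted p 0.161). Nlrp1b has near copies in the genome, and since it is not known how reads that map to several copies were counted, its value is uncertain.

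The NAIP proteins bind flagellin or parts of bacterial secretion systems and recruit Nlrc4. Nlrc4 measured 113, 113 and 147 CPM in control libraries and 84.2, 133 and 107 CPM in the model ones, a log2 fold change of -0.20 (SE 0.23). Naip6, which binds flagellin, measured 173, 107 and 331 CPM in control libraries and 49.98, 142 and 143 CPM in the model ones. Control 3 was the highest and model 1 the lowest, as for Nlrc4, and the log2 fold change of -0.87 (SE 0.52) was 0.02 without both. Naip1, Naip2 and Naip5 had log2 fold changes of -0.38, -0.26 and -0.24, and each was highest in control 3. The 4 NAIP genes are near copies of each other, so how reads were divided among them is uncertain. Nlrp3, which responds to ion fluxes and crystals, was low throughout, at 1.67, 0.588 and 1.42 CPM in control libraries and 0.588, 1.202 and 1.80 CPM in the model ones (17 to 80 reads), with overlapping groups and a log2 fold change of -0.04 (SE 0.59). Aim2, a sensor of cytosolic DNA, measured 26.7 CPM in control 3 and 6.39 to 10.7 CPM in the other libraries.

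The inflammasome adaptor and caspases overlapped between groups. Pycard, the adaptor that links sensors to caspase-1, measured 138, 178 and 101 CPM in control libraries and 164, 125 and 91.7 CPM in the model ones. Casp1, the protease that matures interleukin-1 beta and interleukin-18, measured 112, 134 and 120.0 CPM in control libraries and 156, 99.3 and 82.5 CPM in the model ones. Model 1 was the highest and model 3 the lowest library of Casp1, so the model libraries enclosed all control values. Casp4, the sensor of cytosolic endotoxin, measured 29.6, 31.1 and 98.6 CPM in control libraries and 20.8, 39.6 and 21.2 CPM in the model ones. Its control mean rested on control 3, and the log2 fold change of -0.96 (SE 0.52, unadjusted p 0.105) was -0.14 without that library. In the cytosolic DNA pathway, Cgas, the enzyme that makes the second messenger cGAMP, measured 8.59, 6.73 and 7.41 CPM in control libraries and 1.21, 7.37 and 3.45 CPM in the model ones. Sting1, the receptor of that messenger, measured 9.80, 6.81 and 21.0 CPM in control libraries and 9.14, 14.3 and 11.7 CPM in the model ones. Model 1 was the lowest library for Cgas but not for Sting1, and their log2 fold changes were -0.91 (SE 0.58) and -0.10 (SE 0.43).

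The NF-kB subunits differed in how steady they were. Nfkb1, the precursor of the p50 subunit, had the narrowest spread of all tested members, 1.16-fold, at 133, 118 and 136 CPM in control libraries and 135, 132 and 137 CPM in the model ones. The log2 fold change was 0.06 (SE 0.17), and it was -0.02 with upper quartile scaling and -0.14 with library size alone. Relb, which acts in the non-canonical pathway, measured 78.2, 58.5 and 101 CPM in control libraries and 96.1, 59.7 and 60.7 CPM in the model ones, with overlapping groups. Rela, the main activating subunit, had a log2 fold change of 0.25 (SE 0.17), Nfkb2, the p52 precursor, had -0.10 (SE 0.23), and Rel, a subunit abundant in lymphocytes, had -0.34 (SE 0.55). Rel was highest in control 3 and model 3 (32.5 and 22.7 CPM) and measured 7.72 to 13.6 CPM in the other 4, so it followed the libraries with high B cell marker sums; their part in its level was not tested. Without control 3 all 5 subunit genes had positive log2 fold changes, with a median of 0.14 and a smallest unadjusted p of 0.171.

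The inhibitors of NF-kB did not share a direction either. Nfkbib, which encodes the inhibitor IkB beta, measured 33.9, 32.8 and 35.1 CPM in control libraries and 55.5, 46.4 and 39.2 CPM in the model ones. The control libraries lay within a narrow range and all 3 model libraries above it. Of the exon bases of Nfkbib, 16.4% are shared with Ccer2 or Sirt2 in GENCODE vM21, so reads there may be divided wrongly. Means were 33.9 ± 1.16 and 47.05 ± 8.19 CPM (SD, n = 3) and the log2 fold change was 0.47 (SE 0.19, unadjusted p 0.0427, adjusted p = 0.851 by edgeR). With any 1 library left out it stayed between 0.34 and 0.59, with library size alone it was 0.26, and there its groups overlapped. Nfkbia, which encodes IkB alpha and is itself induced by NF-kB, measured 87.6, 113 and 91.2 CPM in control libraries and 135, 115 and 90.0 CPM in the model ones. Model 3 lay among the control values, and the log2 fold change was 0.22 (SE 0.22). Nfkbiz, which encodes a nuclear regulator of secondary NF-kB targets, measured 126, 178 and 180.1 CPM in control libraries and 109, 201 and 118 CPM in the model ones. Nfkbie and Tnfaip3, the latter a ubiquitin-editing enzyme that ends signalling, gave -0.31 (SE 0.44) and -0.12 (SE 0.22).

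The 3 genes of the IkB kinase complex did not share a direction. Chuk, the catalytic subunit IKK alpha, measured 119, 127 and 95.6 CPM in control libraries and 136, 141 and 151 CPM in the model ones. Each model library was above each control library, except with library size alone, where they overlapped, and the log2 fold change was 0.33 (SE 0.19, unadjusted p 0.126, adjusted p = 0.851 by edgeR). Ikbkb, the catalytic subunit IKK beta, measured 70.3, 61.4 and 88.8 CPM in control libraries and 54.1, 70.2 and 68.7 CPM in the model ones. Ikbkg, the regulatory subunit, measured 44.99, 51.3 and 38.7 CPM in control libraries and 48.0, 48.5 and 46.2 CPM in the model ones. Control 3 was the lowest library for Chuk and Ikbkg and the highest for Ikbkb, whose log2 fold change was -0.19 (SE 0.21).

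**Figure D4:**
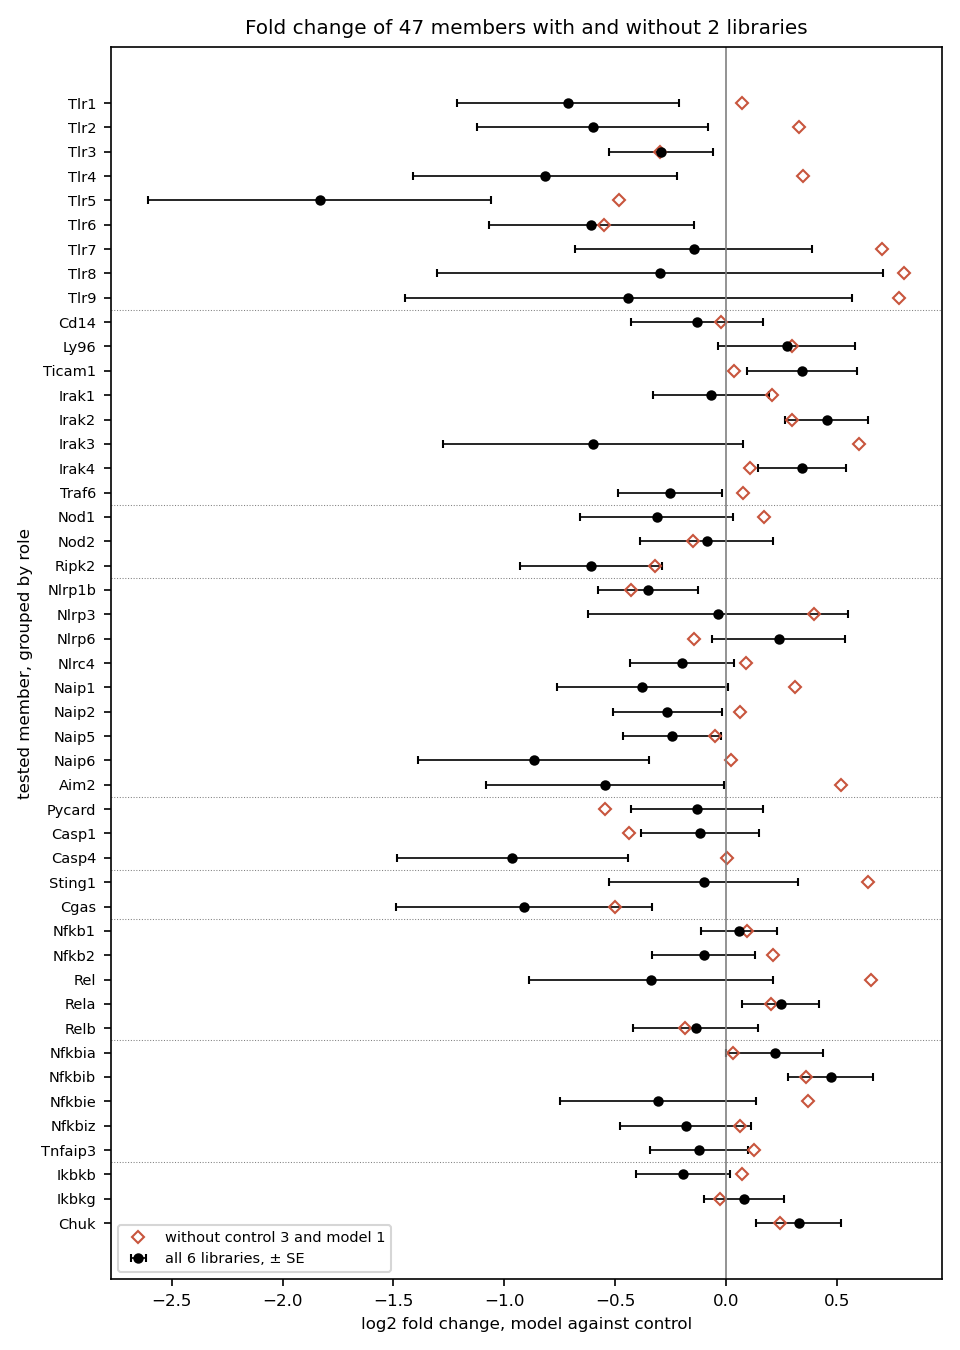
Points give the log2 fold change, model against control, of the 47 tested members with all 6 libraries (bars are SE), and diamonds give it without control 3 and model 1. The points of all 9 Toll-like receptors are negative, while 6 of their diamonds are positive, and Irak2, Nfkbib and Chuk stay positive in both.

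Per exon length, the members differed widely in level. Levels were set as RPKM, the CPM divided by the exon length in kilobases that the GENCODE annotation of GRCm38 gives for the symbol. This length joins the exons of all annotated transcripts and can exceed that of the transcript present, so the order below depends on it. The highest were Casp1 at 81.5 ± 7.22 RPKM in control and 75.2 ± 25.6 RPKM in model tissue, Nlrp6 at 61.7 ± 18.2 and 72.7 ± 14.9 RPKM, and Nfkbia at 60.4 ± 8.52 and 70.4 ± 14.0 RPKM (SD, n = 3). The spreads of these 3 overlap, so their order is not resolved. Pycard followed at 36.5 ± 10.1 and 33.3 ± 9.49 RPKM. Its joined length was 3800 bases against 1497 for Casp1, and before division by length its mean over all libraries was the higher (133 against 117 CPM). At the other end, the receptors Tlr4, Tlr5, Tlr6, Tlr7, Tlr8 and Nod2 and the sensor Nlrp3 had control means between 0.302 and 1.15 RPKM. Among the Toll-like receptors Tlr3 had 7.82 ± 0.964 RPKM in control tissue and Tlr1 had 5.17 ± 2.23 RPKM.

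Promoters were read for a sequence that NF-kB is known to bind, since several of these genes are textbook targets of the factor they control. The RefSeq table of build GRCm38.p6 held promoters for 38 of the 48 members. A common form of its site, the letters GGG, any 2 bases, TT, any base and CC, searched on both strands in the 250 bases before the start, was found for 9 of these 38 genes (11 of 52 promoters) and in 4.11% of all 32841 promoters. The 9 were Tlr2, Tlr3, Nlrp3, Casp4, Nfkb2, Rel, Nfkbia, Tnfaip3 and Ikbkg. A match describes letters only. Shown are 4 of the promoters with a match, at Nfkbia (chr12:55492648-55492897, minus strand), Tnfaip3 (chr10:19015411-19015660, minus strand), Rel (chr11:23770970-23771219, minus strand) and Casp4 (chr9:5308599-5308848, plus strand). The promoter of Nfkbib (chr7:28766645-28766894, minus strand) is set beside them because that inhibitor had the smallest unadjusted p of all members and no match. All are 5′ to 3′ on the strand of the gene, and capitals mark the matched letters (2 overlapping matches in Rel and in the first stretch of Casp4).
Nfkbia: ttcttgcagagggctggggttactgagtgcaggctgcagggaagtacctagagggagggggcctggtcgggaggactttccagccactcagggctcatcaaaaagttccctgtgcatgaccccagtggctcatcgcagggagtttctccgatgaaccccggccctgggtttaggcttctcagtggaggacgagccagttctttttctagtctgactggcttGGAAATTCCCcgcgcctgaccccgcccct
Tnfaip3: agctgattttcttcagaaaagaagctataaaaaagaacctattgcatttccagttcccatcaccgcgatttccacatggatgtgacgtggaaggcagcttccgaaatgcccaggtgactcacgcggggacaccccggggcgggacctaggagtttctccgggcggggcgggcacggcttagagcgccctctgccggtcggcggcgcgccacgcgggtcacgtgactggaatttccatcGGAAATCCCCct
Rel: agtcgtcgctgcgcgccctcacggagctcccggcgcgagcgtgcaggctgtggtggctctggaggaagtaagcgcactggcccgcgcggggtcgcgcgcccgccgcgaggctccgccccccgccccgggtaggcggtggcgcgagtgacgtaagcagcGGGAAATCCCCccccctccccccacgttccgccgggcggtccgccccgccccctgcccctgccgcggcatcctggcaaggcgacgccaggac
Casp4: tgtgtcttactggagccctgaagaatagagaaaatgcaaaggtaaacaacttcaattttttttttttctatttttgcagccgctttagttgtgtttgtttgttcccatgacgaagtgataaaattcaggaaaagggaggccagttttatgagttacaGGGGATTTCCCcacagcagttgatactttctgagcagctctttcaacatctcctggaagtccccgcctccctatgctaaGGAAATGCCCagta
Nfkbib: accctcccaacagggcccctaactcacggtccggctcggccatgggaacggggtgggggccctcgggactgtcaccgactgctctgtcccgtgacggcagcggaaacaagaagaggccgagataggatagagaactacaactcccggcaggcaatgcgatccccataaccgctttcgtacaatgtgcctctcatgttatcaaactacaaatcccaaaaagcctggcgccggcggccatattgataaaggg
The 9 members with a match had log2 fold changes from -0.96 to 0.22, of which 7 of 9 were negative (36 of 47 over all tested members), and 0 of the 9 had groups that did not overlap (6 of 47 over all tested members). Nfkbia and Tnfaip3, with 1 match each, measured 0.22 (SE 0.22) and -0.12 (SE 0.22), and Nfkbib, with 0 matches in this window, 0.47 (SE 0.19).

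Other genes of these pathways, from 4 lists, gave no call either. Of 90 such genes listed there, 79 were tested, edgeR called 0 of them, and 2 of 79 had an unadjusted p under 0.05 against 4.81% of all genes. One was Tab3, an adaptor of the kinase Tak1, at 36.8, 33.8 and 19.6 CPM in control libraries and 40.5, 51.5 and 69.8 CPM in the model ones (log2 fold change 0.84, SE 0.31, unadjusted p 0.0276). The other was Sarm1, at 0.730, 1.02 and 0.997 CPM in control libraries and 0, 0.295 and 0.285 CPM in the model ones. The most abundant were Tbk1 and Tab2 among Toll-like and RIG-I-like genes, Gsdmd and Xiap among inflammasome genes, Rbck1 and Tnip1 among NF-kB regulators, and Sod2 and Nos2 among NF-kB targets. Nos2, the inducible nitric oxide synthase, ranked there through control 3 alone, at 445 CPM against 1.45 to 17.1 CPM in the other 5 libraries. Tbk1, a kinase that activates interferon regulatory factors, measured 131, 141 and 104 CPM in control libraries. In the model ones it measured 145, 151 and 156 CPM, without overlap (log2 fold change 0.27, SE 0.19). Of the 79 tested genes of these lists, 3 lay higher and 2 lower without overlap, against 4.73% and 6.33% of all genes. Gsdmd, the pore-forming target of inflammatory caspases, measured 270.4, 332 and 165 CPM in control libraries and 443, 307 and 256 CPM in the model ones. The log2 fold changes of Tab2, Xiap, Tnip1, Rbck1 and Sod2 were -0.18, 0.09, 0.21, 0.08 and 0.36. Of the 12 tested NF-kB target genes 7 had positive log2 fold changes, with a median of 0.09 over all 6 libraries, which was -0.004 with upper quartile scaling and -0.09 with library size alone. Their direction turned with the library left out: 11 were positive without control 3 (median 0.39), and 4 were positive without control 2 or without model 2 (median -0.19 in both).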

How the data were processed

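Per the labels' protocols, poly-A RNA came from frozen mouse intestine (6 libraries). Per the submitters' processing notes FastQC, Trimmomatic, STAR and featureCounts were used with build GRCm39; annotation and strandedness: not given in the sources used here. What the authors deposited were raw read counts per gene symbol, with 35007515 to 45285564 counts a library. All columns were matched to samples by library name (0 unmatched). Reads of near-identical copies (Naip1, Naip2, Naip5 and Naip6) and of overlapping genes may be divided wrongly: in GENCODE vM21, 11 of 48 members share exon bases with another gene, none over 50%. Among members whose groups did not overlap, the shared part was 16.4% for Nfkbib, 7.9% for Irak4 and 4.4% for Irak2. It was 0% for Chuk, Ripk2 and Nlrp1b.

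Genes were filtered by filterByExpr (15904 of 33017 kept), scaled by TMM and tested with edgeR's quasi-likelihood F test, group as the only term (R 4.3.3, edgeR 4.0.16). SE was taken as the size of the log2 fold change over the root of its F statistic. The tests were checked on simulated data with a smaller spread among libraries than in these data, where the biological coefficient of variation was 40.7%. That check does not show what size of change these libraries could detect. DESeq2 1.42.0 and limma 3.58.1 (voom) were alternatives, with other scalings, filters, a replicate block and each library left out. No 2 libraries of the same group were duplicates: chi-square over its degrees of freedom was 111 to 542.7 in the 6 pairs. The members and lists were chosen with earlier results of these data known. Named with every library's value are the 2 most abundant members of each role group (all of a group of 2 or 3), members with an unadjusted p under 0.05 or groups that do not overlap, and 10 fixed genes (Tlr4, Tlr5, Tlr9, Nod2, Nlrp3, Nlrp6, Nlrc4, Casp1, Nfkb1 and Nfkbia); Ticam1 was added after its values were seen. Of the further pathway lists, the 2 most abundant tested genes of each and those with an unadjusted p under 0.05 are named.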

Additional observations from a re-analysis of the deposited data

How the results depend on the processing

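No member and no further pathway gene was called under any of the 15 other settings, and DESeq2 called 31 genes in the whole table, none of them a member. The number of members with an unadjusted p under 0.05, 3 in the main test, was 1 with upper quartile scaling, with library size alone, with at least 5 CPM in 3 libraries and with the replicate number as a block, and 0 to 2 with 1 library left out (0 without control 3 and 0 without model 1, where 2.34% and 3.95% of all genes had one). Over all genes this share was 2.34% to 6.11% across settings. Library size alone moved the median of all genes from -0.02 to -0.21. The number of members whose groups did not overlap was 7 to 14 with 1 library left out, when 16.3% to 27.4% of all genes did not overlap, and 17 without control 3 and model 1 (33.9%), since fewer libraries overlap less often. Leaving out both was chosen after seeing the data. The median of all members was then 0.090, and the sign turned for 26 of 47, among them 13 of those named with every library's value: Tlr1 (0.073), Tlr4 (0.35), Tlr9 (0.78), Nod1 (0.17), Nlrp3 (0.40), Nlrp6 (-0.14), Nlrc4 (0.090), Naip6 (0.023), Casp4 (0.0036), Sting1 (0.64), Nfkbiz (0.064), Ikbkb (0.074) and Ikbkg (-0.027). Signs also turned for Nfkb1 with upper quartile scaling (-0.019) and library size alone (-0.14), for Ikbkg with library size alone (-0.11) and for Sting1 with limma-voom (0.050) and with the replicate block (0.032). Of the 9 Toll-like receptor genes, all negative in the main test, 8 were negative and 1 positive with limma-voom, and likewise with the replicate block. With 1 library left out 21 of 47 members took both signs, among them 9 of those named so. Their log2 fold changes ranged from -1.16 to 0.15 for Tlr4, -1.08 to 0.25 for Tlr9, -0.23 to 0.13 for Nod2, -0.44 to 0.28 for Nlrp3, -0.36 to 0.11 for Pycard, -0.42 to 0.069 for Casp1, -0.38 to 0.51 for Sting1, -0.40 to 0.10 for Relb and -0.00059 to 0.20 for Ikbkg. The cause of these changes was not tested. For same-numbered libraries the labels give a shared number and name no shared animal or batch. Their correlation of deviations was -0.175, -0.252 and 0.295 for numbers 1, 2 and 3. Between control and model libraries of different numbers it was -0.325 to 0.456. With the replicate block 0 members were called.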

Other observations

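Several other products and targets of these pathways were set apart by control 3 alone. These genes were picked with their values known. Saa1, an acute phase protein made by ileal epithelium, measured 210.0 CPM in control 3 and at most 0.136 CPM elsewhere, and it was not tested because it had counts above the filter in 1 library only. Il18, the cytokine that caspase-1 matures, ran the other way, with 22.9 CPM in control 3, 67.8 and 90.6 CPM in control 1 and 2 and 133, 107 and 80.6 CPM in model 1 to 3. Ccl5, a chemokine of intraepithelial lymphocytes, was likewise lowest in control 3, at 21.4 CPM against 52.3 to 161 CPM in the others. Control 3 was also the library with 1166 CPM of the ileal bile acid carrier Fabp6, which had at most 0.285 CPM elsewhere; the part of the ileal profile in these values was not tested. Besides Myd88, the pathway genes Txnip, Cxcl10 and Ccl2 were listed at 0 in all 6 libraries.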
